A study of Mus musculus with 82 samples.

Results

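Binding of tagged Eomes and Brachyury was examined near 6 genes of migration and adhesion in mesendoderm, Cxcl12, Cxcr4, Pdgfra, Flrt3, Fn1 and Vim. A peak was taken for one of these genes when its midpoint lay within 50 kb of the gene's span on mouse build GRCm38 (mm10). This gave 83 peaks of 132113 in the lists of 4 constructs. The position rule used no height and no overlap between lists. All libraries came from mouse embryonic stem cells of the A2lox.Cre line that lack both Eomes and Brachyury (dKO), carried 1 construct switched on by doxycycline, and were grown as embryoid bodies to day 5 with activin A (30 ng/ml). The constructs were EoGFP (Eomes with a GFP tag) and BraGFP (Brachyury with a GFP tag), with 2 libraries and 1 joint peak list each, and EoVP16 (Eomes joined to the VP16 activation domain) and EoV5 (Eomes with a V5 tag), with 1 library and 1 list each. EoGFP and BraGFP were pulled down through GFP, and EoVP16 and EoV5 through V5, after fixation with disuccinimidyl glutarate and formaldehyde. The factors were thus induced transgenes in cells without the endogenous proteins, and an embryoid body holds several cell types. The series holds 82 samples, and only these 6 libraries of tagged factors were used, so nothing is said on background without doxycycline, on chromatin or on expression of the genes.

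Eomes and Brachyury both bind DNA through a T-box and act where epiblast cells leave the epithelium, at the primitive streak, and move away as mesoderm and definitive endoderm. Moving cells read guidance cues through surface receptors, grip a matrix rich in fibronectin and exchange epithelial for mesenchymal cytoskeleton. Cxcl12 is a chemokine and Cxcr4 its receptor, which also marks definitive endoderm. Pdgfra is a receptor tyrosine kinase for platelet-derived growth factors and a marker of early mesoderm. Flrt3 is a transmembrane protein with leucine-rich repeats that acts in cell adhesion and repulsion, Fn1 encodes fibronectin and Vim encodes vimentin, the intermediate filament protein of mesenchymal cells.

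The RefSeq promoter table (GRCm38.p6) held 5 of the 6 genes, each with 250 bases before and 50 bases from the annotated start onwards. Fn1 had no entry. The 4 promoters that a peak reached are shown to set 2 windows bound by every construct beside 2 windows at which the constructs differed. Flrt3 (chr2:140671427-140671726, minus strand) and Vim (chr2:13574061-13574360, plus strand) lay wholly inside peaks of all 4 lists. Cxcr4 (chr1:128592250-128592549, minus strand) lay inside peaks of EoGFP, EoVP16 and EoV5, and no BraGFP peak touched it. In these 3 the capitals mark the bases from the start onwards. In Pdgfra (chr5:75152001-75152300, plus strand) the capitals mark the 140 bases that lay inside a BraGFP peak, the only list whose peaks reached this window.
Flrt3: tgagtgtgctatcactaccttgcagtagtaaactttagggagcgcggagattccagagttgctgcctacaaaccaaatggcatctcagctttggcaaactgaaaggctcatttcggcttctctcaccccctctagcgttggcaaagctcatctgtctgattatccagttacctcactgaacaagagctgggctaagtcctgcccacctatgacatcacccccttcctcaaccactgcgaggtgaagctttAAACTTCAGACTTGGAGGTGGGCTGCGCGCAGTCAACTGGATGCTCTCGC
Vim: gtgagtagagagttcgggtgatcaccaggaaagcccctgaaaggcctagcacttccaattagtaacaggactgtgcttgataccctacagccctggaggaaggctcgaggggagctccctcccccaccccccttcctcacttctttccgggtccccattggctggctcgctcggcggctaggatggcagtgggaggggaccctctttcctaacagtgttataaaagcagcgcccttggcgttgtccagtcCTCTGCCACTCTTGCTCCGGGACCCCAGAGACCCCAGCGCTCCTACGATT
Cxcr4: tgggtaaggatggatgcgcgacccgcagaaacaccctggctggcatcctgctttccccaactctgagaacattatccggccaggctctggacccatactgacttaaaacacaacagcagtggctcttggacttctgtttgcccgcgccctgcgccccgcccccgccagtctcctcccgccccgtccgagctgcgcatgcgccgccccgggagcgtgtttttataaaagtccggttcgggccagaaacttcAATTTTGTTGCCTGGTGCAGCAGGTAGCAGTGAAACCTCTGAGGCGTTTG
Pdgfra: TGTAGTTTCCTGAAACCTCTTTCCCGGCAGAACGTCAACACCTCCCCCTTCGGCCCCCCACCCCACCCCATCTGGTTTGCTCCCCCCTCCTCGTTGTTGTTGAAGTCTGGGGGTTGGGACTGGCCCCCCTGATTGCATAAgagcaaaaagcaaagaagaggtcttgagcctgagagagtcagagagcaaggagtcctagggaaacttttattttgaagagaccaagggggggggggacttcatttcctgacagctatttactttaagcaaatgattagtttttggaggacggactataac

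No peak of any list touched the remaining promoter, that of Cxcl12. Promoter windows overlapped a peak in 3 of 5 genes for each construct. Among the 17492 coding genes with an entry, the share was 42.1% for EoGFP, 21.8% for BraGFP, 52.6% for EoVP16 and 32.2% for EoV5. Peaks of all 4 lists overlapped the window in 2 of the 5 genes, Flrt3 and Vim, and in 15.4% of coding genes. The T-box motif AGGTGTGA, on either strand, stood in 0 of the 5 promoters and in 1.27% of all 32851 promoter windows. Its shorter form GGTGTGA, which lies inside it, stood in 0 of 5 and in 3.98%. The core AGGTG, which lies inside AGGTGTGA and was searched after these were seen to be absent, began at positions 204, 239 and 266 of the Flrt3 window and at position 39 of the Pdgfra window, counted from the 5′ end, and stood in 51.9% of all windows. TATAAA, also added later and not contained in the T-box motifs, stood at position 219 of Vim and, counting both strands, at 219 and 221 of Cxcr4, against 13.6% of all windows. These are matches of letters only.

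Every one of the 6 genes had a peak of EoGFP, EoVP16 and EoV5 within 50 kb, and 5 had a BraGFP peak. Such counts say little alone, because 81.1% of 21887 coding genes had an EoGFP peak in the same window, 76.5% a BraGFP peak, 84.2% an EoVP16 peak and 83% an EoV5 peak. Peaks of all 4 lists lay near 5 of the 6 genes and near 68.8% of coding genes. The genes together held 16 EoGFP, 17 BraGFP, 22 EoVP16 and 28 EoV5 peaks. Per gene the median was 2.5 EoGFP, 3 BraGFP, 4.5 EoVP16 and 4.5 EoV5 peaks, against medians over all coding genes of 3 EoGFP, 2 BraGFP, 3 EoVP16 and 3 EoV5 peaks. The genes differed from each other in how many peaks of each construct lay near them. The lists were kept above different heights, 120 fragments for EoGFP, 40 for BraGFP, 36 for EoVP16 and 60 for EoV5 per the file names. Each list is 1 set without replicate values, so counts are given without a test. Over the 4 lists together, between 25.5% (Flrt3) and 65.6% (Cxcl12) of coding genes had at least as many peaks as each gene. For single lists at Pdgfra, Fn1 and Vim this share was between 24.8% and 68.25%. At Cxcr4 and Flrt3 it is given below for the counts that stood out.

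**Figure D1:**
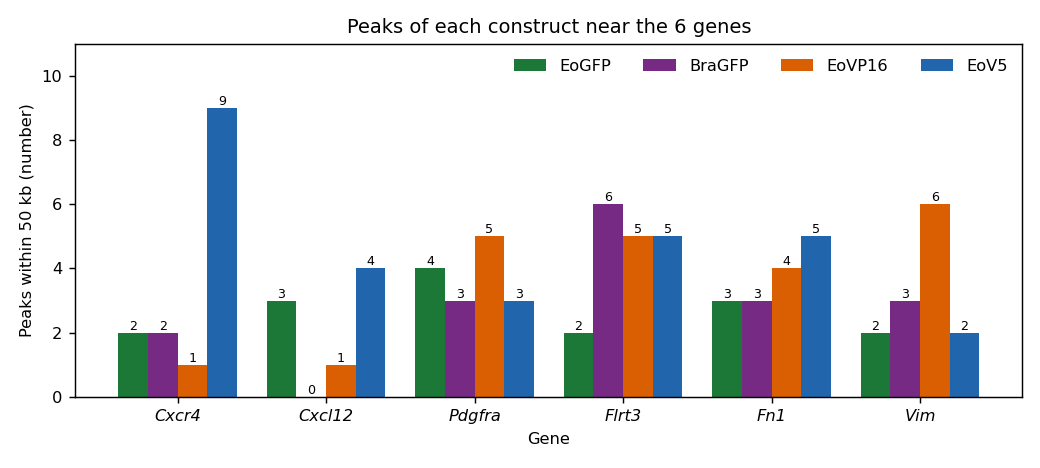
Number of peaks with a midpoint within 50 kb of each gene (vertical axis) for the 6 genes (horizontal axis), with 1 bar for each of the lists EoGFP, BraGFP, EoVP16 and EoV5. Cxcr4 stands out by 9 EoV5 peaks beside 1 EoVP16 peak, Cxcl12 by 0 BraGFP peaks and Flrt3 by 6 BraGFP peaks.

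**Figure D2:**
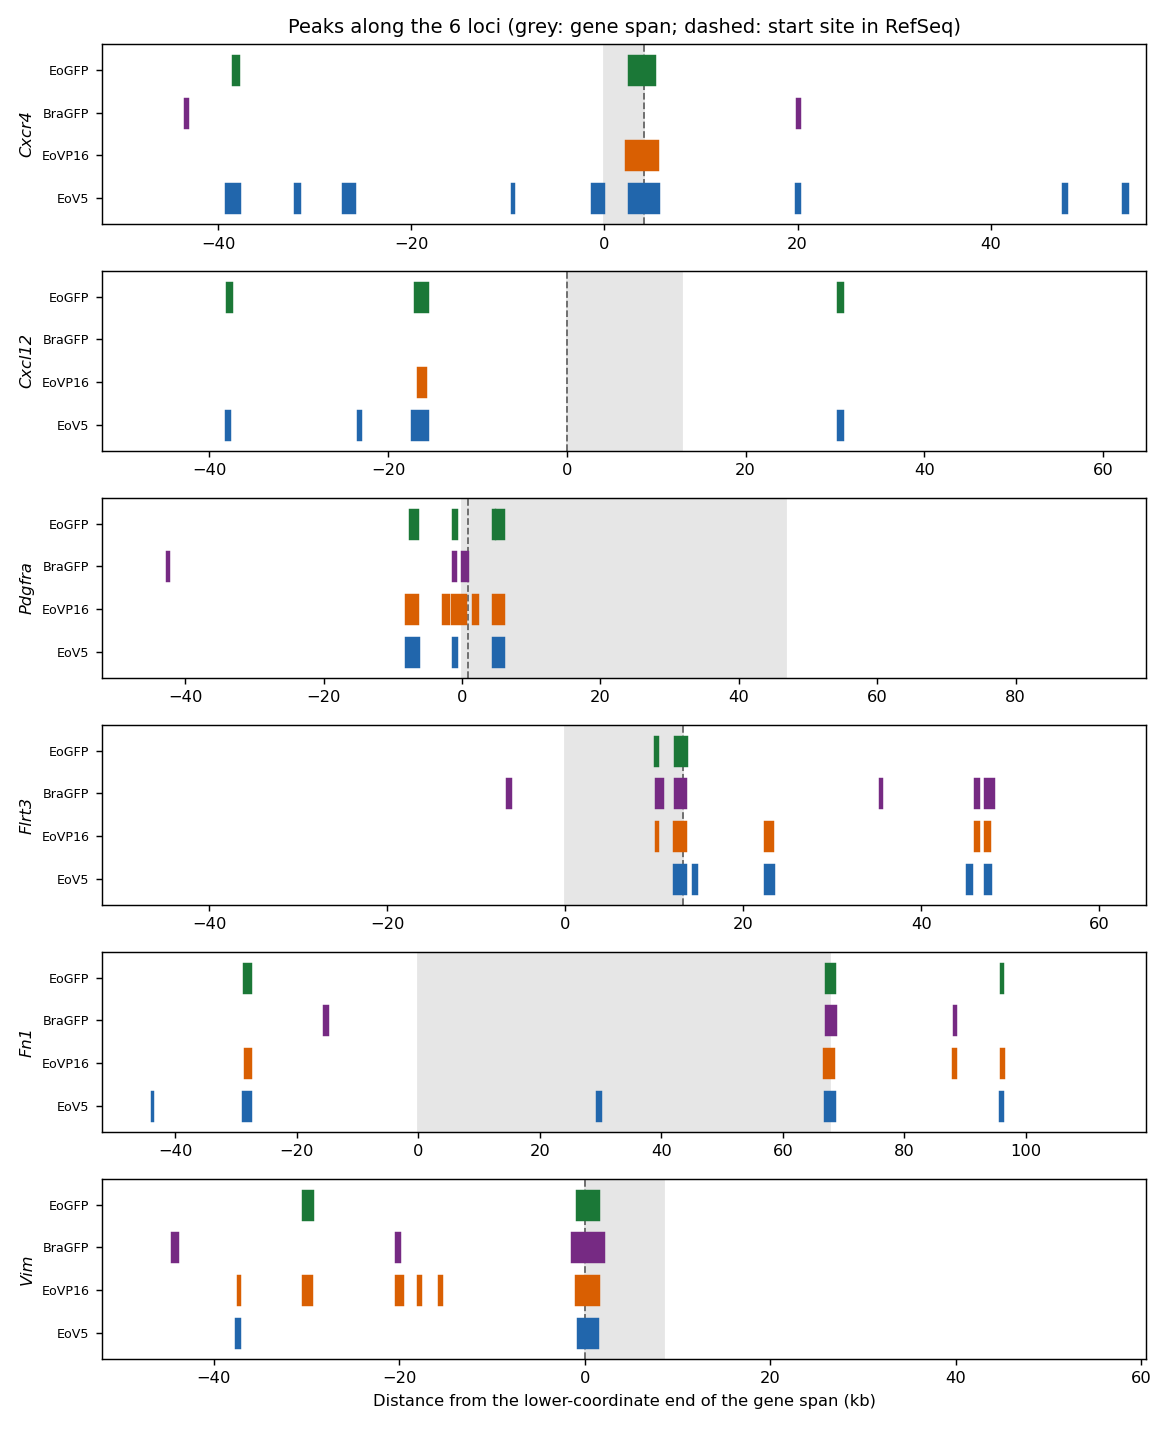
Position of every peak within 50 kb of each gene, in kb from the lower-coordinate end of the gene span (horizontal axis), 1 row for each list. Grey marks the span and the dashed line the RefSeq start, drawn for the 5 genes that have one, and all 4 lists meet at the starts of Flrt3 and Vim and at the upper end of Fn1.

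The chemokine gene Cxcl12 (chromosome 6, 117168535 to 117181368, plus strand) was the only one of the 6 without a BraGFP peak. The 3 Eomes lists held 3 EoGFP, 1 EoVP16 and 4 EoV5 peaks there. This combination, peaks of all 3 Eomes lists and none of BraGFP, was shared by 7.73% of coding genes. The nearest BraGFP peak lay 59.2 kb from the gene, outside the window. All peaks of Cxcl12 were distal, and none lay over the gene or its start. A site 16.3 to 16.5 kb upstream was held by the 3 Eomes lists, with an EoGFP peak at 117151473 to 117152956, an EoVP16 peak at 117151731 to 117152744 and an EoV5 peak at 117151088 to 117152944. Its pileup, the number of fragments stacked at the summit, was 55 in EoVP16 (95% Poisson interval 41.4 to 71.6) and 161 in EoV5 (137 to 188). The tallest EoV5 peak of the gene lay 17.7 kb downstream, at 117198750 to 117199476, with 254 fragments (224 to 287), taller than 88.7% of the EoV5 list. An EoGFP peak overlapped it, and no EoVP16 peak did. The remaining EoGFP peak, 37.9 kb upstream, also coincided with an EoV5 peak (119 fragments, 98.6 to 142).

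Cxcr4, the receptor (chromosome 1, 128588199 to 128592299, minus strand), showed the most uneven counts. It had 2 EoGFP, 2 BraGFP, 1 EoVP16 and 9 EoV5 peaks. At least 9 EoV5 peaks were found near 4.29% of coding genes. At least 1 EoVP16 peak was found near 84.2%, and the lower quartile of EoVP16 counts over all coding genes was 1, so a count of 1 was not rare by itself. Of the 9 EoV5 peaks, 6 overlapped no other list, and most of these were low. Their heights were 63, 64, 65, 87, 99 and 108 fragments, in a list that starts at 60 and has a median of 99. The start of Cxcr4 carried broad peaks of the 3 Eomes constructs. The EoGFP peak (128590590 to 128593455) was 2866 bp wide, the EoVP16 peak (128590310 to 128593767) 3458 bp and the EoV5 peak (128590625 to 128593877) 3253 bp, each wider than 99% of its list. Their summits lay 118 bp past the start in EoVP16 and 98 bp past it in EoV5. Heights there were 73 fragments in EoVP16 (57.2 to 91.8) and 92 in EoV5 (74.2 to 113), above 74.8% of the EoVP16 list and 43.9% of the EoV5 list. The tallest EoV5 peak was distal, 38.5 kb downstream at 128548916 to 128550449, with 301 fragments (268 to 337). It was shared with EoGFP and had no EoVP16 peak. Both BraGFP peaks were narrow, 341 bp at 128544696 to 128545036 and 448 bp at 128607996 to 128608443. The second of these, 15.9 kb upstream, coincided with an EoV5 peak of 63 fragments (48.4 to 80.6), and the first overlapped no other list.

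Pdgfra (chromosome 5, 75151322 to 75198206, plus strand) had 4 EoGFP, 3 BraGFP, 5 EoVP16 and 3 EoV5 peaks. Apart from 1 BraGFP peak 42.5 kb upstream, all of them lay between 75143083 and 75157341, around the lower end of the span. That BraGFP peak lay nearer to another coding gene, Gsx2, at 30.9 kb. A merged site held by all 4 lists (75149677 to 75152140) lay just upstream of and across the lower end of the span. A BraGFP and an EoVP16 peak reached across that end, and the EoGFP and EoV5 peaks of the site stopped upstream of it. Here the EoVP16 peak (75149677 to 75151853) had the greatest height of any EoVP16 peak near the 6 genes, 123 fragments (102 to 147), and stood above 94.2% of its list. The EoV5 peak at the same site (75149835 to 75150648) had 96 fragments (77.8 to 117) and stood above 47.4% of its list. The RefSeq start, at 75152251, lay inside the span and outside this site. The widest BraGFP peak of Pdgfra, 929 bp at 75151212 to 75152140, came closest to that start and overlapped EoVP16 but neither EoGFP nor EoV5.

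The tallest EoV5 peak of all 28 lay 7.22 kb upstream of Pdgfra, at 75143083 to 75145114, with 469 fragments (428 to 513) and a fold enrichment of 61.0 over the caller's background. It stood above 96.7% of the EoV5 list. EoGFP (75143592 to 75144940, 1349 bp, the widest EoGFP peak of the gene) and EoVP16 (75143130 to 75144897, 121 fragments, 100 to 145) shared the site, and BraGFP did not. A further site of the 3 Eomes lists lay inside the gene, at 75155630 to 75157341, where EoGFP had 2 separate peaks. EoVP16 alone held 2 low peaks at this gene, of 42 and 45 fragments.

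Flrt3 (chromosome 2, 140658198 to 140671476, minus strand) was the gene with most BraGFP peaks. It had 2 EoGFP, 6 BraGFP, 5 EoVP16 and 5 EoV5 peaks, and at least 6 BraGFP peaks were found near 8.65% of coding genes. The gene lies inside the span of Macrod2, which encodes an ADP-ribose hydrolase and covers 1998 kb, so that all 18 peaks were also inside Macrod2 and cannot be assigned to one gene by position. The start of Flrt3 was held by all 4 lists (140670282 to 140671867). The EoGFP peak (140670420 to 140671867) was 1448 bp wide, the BraGFP peak (140670426 to 140671760) 1335 bp, and both were the widest of the gene in their list. Heights at the start were 66 fragments in EoVP16 (51.0 to 84.0) and 91 in EoV5 (73.3 to 112), with summits 19 bp before the start in EoVP16 and 745 bp past it in EoV5. A second site inside the gene (140668187 to 140669224) was held by EoGFP, BraGFP and EoVP16 and lacked an EoV5 peak.

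Upstream of Flrt3, BraGFP was found without EoGFP. Of its BraGFP peaks, 2 that lay 32.9 and 34.4 kb upstream (140704123 to 140704714 and 140705245 to 140706432) both overlapped EoVP16 peaks, of 36 fragments (25.2 to 49.8) and 75 fragments (59.0 to 94.0). The EoVP16 peak of 75 fragments, the tallest of the gene, also overlapped EoV5 (77 fragments, 60.8 to 96.2). No EoGFP peak lay within 50 kb outside the gene. The tallest EoV5 peak of Flrt3, 203 fragments (176 to 233) at 140703209 to 140703925, lay between these sites and the gene and overlapped no other list. Peaks of EoGFP, BraGFP and EoV5 just outside the window, at 50.6 to 50.7 kb, were not counted.

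Fn1, the fibronectin gene (chromosome 1, 71585473 to 71653280), had 3 EoGFP, 3 BraGFP, 4 EoVP16 and 5 EoV5 peaks. The tables used give no strand for it, so its sides are named by coordinate. All 4 lists met at the upper end of the span (71652064 to 71654211). There the EoGFP peak was 1682 bp wide (71652375 to 71654056) and the BraGFP peak 1793 bp (71652419 to 71654211), wider than 90.9% of the EoGFP list and 97.4% of the BraGFP list. Heights were 77 fragments in EoVP16 (60.8 to 96.2) and 86 in EoV5 (68.8 to 106). The tallest peaks of both V5-antibody lists lay together 28.2 kb above the gene, at 71681197 to 71681882 in EoVP16 with 104 fragments (85.0 to 126) and at 71681108 to 71681762 in EoV5 with 248 fragments (218 to 281). EoGFP shared that site and BraGFP did not. BraGFP instead met EoVP16, without EoGFP or EoV5, at a site 20.4 kb above the gene (71673329 to 71673932, 80 EoVP16 fragments, 63.4 to 99.6). On the lower side, 5 peaks lay nearer to the neighbouring gene Atic, an enzyme of purine synthesis, than to Fn1.

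Vim, the vimentin gene (chromosome 2, 13574311 to 13582826, plus strand), had 2 EoGFP, 3 BraGFP, 6 EoVP16 and 2 EoV5 peaks. Its start carried the widest BraGFP peak of the 6 genes, 3547 bp at 13572864 to 13576410, which was wider than 99.9% of the BraGFP list. The EoGFP peak there (13573360 to 13575816, 2457 bp) was wider than 98.3% of its list. Heights were 77 fragments in EoVP16 (60.8 to 96.2), above 78.0% of that list, and 79 in EoV5 (62.6 to 98.5), above 30.1% of that list. The 2 summits stood 1901 bp apart, 743 bp before the start in EoVP16 and 1158 bp past it in EoV5. All other peaks of Vim lay upstream, 15.6 to 44.2 kb away, and 9 of its 13 peaks were nearer to Trdmt1, which encodes a tRNA methyltransferase. Among these, a BraGFP peak 20.2 kb upstream met EoVP16 (52 fragments, 38.8 to 68.2) without EoGFP or EoV5, and an EoGFP peak 29.9 kb upstream met EoVP16 (47 fragments, 34.5 to 62.5) without BraGFP or EoV5. The tallest EoV5 peak of Vim (13536661 to 13537200, 103 fragments, 84.1 to 125) lay 37.4 kb upstream.

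Merging peaks that shared at least 1 bp gave 43 sites near the 6 genes. Of these, 21 sites were held by 1 list, 10 by 2, 8 by 3 and 4 by all 4, or 9.30%. Over the genome 53.1% of 71918 sites were held by 1 list, 20.6% by 2, 18% by 3 and 8.3% by all 4. The 4 sites held by every list belonged to 4 different genes, Pdgfra, Flrt3, Fn1 and Vim, and each merged site covered one end of its gene. At Pdgfra only BraGFP and EoVP16 peaks reached that end, and the EoGFP and EoV5 peaks of the site stopped before it. The only other site over a gene end was that of Cxcr4, held by the 3 Eomes lists. In the genome 46.3% of sites in all 4 lists covered an end of a coding gene, 24.0% of those in 3, 15.2% of those in 2 and 4.75% of those in 1. Of the 27 sites more than 10 kb from the 6 genes, 14 were held by 1 list, 9 by 2, 4 by 3 and 0 by 4. Counted in the same way around every coding gene, 46.6% of 72869 pairs of a gene and a site 10 to 50 kb from it had a site in 1 list, 21.7% in 2, 20.7% in 3 and 11.01% in 4. The most frequent combinations at the 6 genes were EoV5 alone (11 sites, 25.6%, against 14.5% of all sites), BraGFP alone (6 sites, 14.0%, against 23.0%) and the 3 Eomes lists without BraGFP (6 sites, 14.0%, against 14.5%). No EoGFP peak near the 6 genes stood alone, and 4.84% of the whole EoGFP list did.

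Overlap between EoGFP and BraGFP addressed how far Eomes and Brachyury shared sites at these genes. Near the 6 genes 5 of 16 EoGFP peaks overlapped BraGFP (31.25%, 95% Wilson interval 14.2 to 55.6), against 27.1% of the whole EoGFP list. In the other direction 5 of 17 BraGFP peaks overlapped EoGFP (29.4%, 13.3 to 53.1), against 29.3%. The 5 shared EoGFP peaks were the ones at the sites of all 4 lists in Pdgfra, Flrt3, Fn1 and Vim and the second site inside Flrt3. Overlap with EoVP16 was found for 10 of 17 BraGFP peaks (58.8%, 36.0 to 78.4), against 34% of the whole BraGFP list. This was the only one of 12 ordered pairs whose interval left out the whole-list share. Neighbouring peaks of a gene are not independent, and no test was made. The share of BraGFP peaks found in no other list was 6 of 17 (35.3%, 17.3 to 58.7), against 60% of the whole BraGFP list, which also lay outside the interval. Neither difference held throughout: with a window of 100 kb, 10 of 25 BraGFP peaks overlapped EoVP16 (40%, 23.4 to 59.3) and 13 of 25 stood alone (52%, 33.5 to 70.0), and the whole-list shares lay inside both intervals. They also lay inside with the wider or taller 50% of each list or with the midpoint rule for overlap, alternatives that for these shares were chosen after seeing the data. With EoV5 the number of overlapping BraGFP peaks was likewise 6 of 17 (35.3%, 17.3 to 58.7), against 29.4%. Of the 4 sites where BraGFP met EoVP16 and not EoGFP, 2 lay at Flrt3, 1 at Fn1 and 1 at Vim, and 1 of the 4 also held EoV5. The BraGFP peak nearest the Pdgfra start met EoVP16 as well, inside the larger site of all 4 lists.

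**Figure D3:**
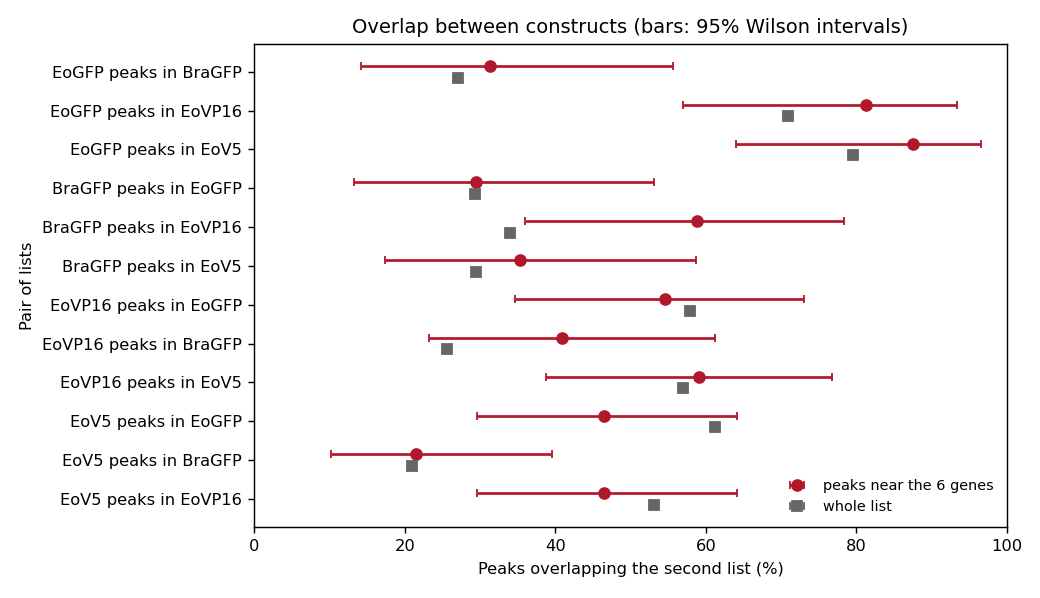
Percentage of peaks of the first list that overlap a peak of the second (horizontal axis) for each ordered pair of lists (vertical axis), with red circles for peaks near the 6 genes, grey squares for whole lists and bars for 95% Wilson intervals. BraGFP peaks in EoVP16 are at 58.8% near the genes, against 34% in the whole list, and the other intervals include the whole-list value.

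Most EoGFP peaks of these genes were shared with the other Eomes lists. Near the 6 genes 13 of 16 EoGFP peaks overlapped EoVP16 (81.25%, 57.0 to 93.4), against 70.9% of the whole EoGFP list. Near the 6 genes 14 of 16 EoGFP peaks overlapped EoV5 (87.5%, 64.0 to 96.5), against 79.6% of the whole list. The 2 without EoV5 were the second site inside Flrt3 and the site 29.9 kb upstream of Vim. Of EoVP16 peaks, 12 of 22 overlapped EoGFP (54.5%, 34.7 to 73.1), against 57.9% of the whole EoVP16 list. Overlap of EoVP16 with BraGFP was found at 9 of 22 (40.9%, 23.3 to 61.3), against 25.7%, and with EoV5 at 13 of 22 (59.1%, 38.7 to 76.7), against 56.9%. Of EoV5 peaks, 13 of 28 overlapped EoVP16 (46.4%, 29.5 to 64.2), against 53.1% of the whole EoV5 list. The same number overlapped EoGFP, against 61.2%, and 6 of 28 overlapped BraGFP (21.4%, 10.2 to 39.5), against 20.9%. EoV5 peaks found in no other list made up 11 of 28 (39.3%, 23.6 to 57.6), against 27.3% of the whole list, and 6 of these 11 were at Cxcr4.

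Median height of the peaks near the 6 genes was 65.5 fragments in EoVP16 (95% interval of the median 52 to 75, n = 22) and 91.5 in EoV5 (79 to 108, n = 28). The whole lists had medians of 54 in EoVP16 and 99 in EoV5, both inside those intervals. Pileup is not scaled to depth, which is unknown, and binding in more cells and stronger binding per cell cannot be told apart. EoV5 peaks in no other list had a median of 68 fragments (63 to 203, n = 11), and those met by another list 96 (63 to 469, n = 17). In the whole EoV5 list these medians were 79 without and 114 with another list. For EoVP16 the median near the genes was 43.5 in no other list (38 to 65, n = 4), against 42 in the whole list, and 70.5 where another list met it (36 to 123, n = 18), against 61. These ranges are the lowest and highest peak. The tallest EoV5 peak of Pdgfra, Fn1 and Vim overlapped an EoVP16 peak and that of Cxcr4, Cxcl12 and Flrt3 did not, or 3 of 6, against 53.1% of the whole EoV5 list that overlapped EoVP16. That share covers EoV5 peaks of every height, and the share among tall peaks was not computed.

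**Figure D4:**
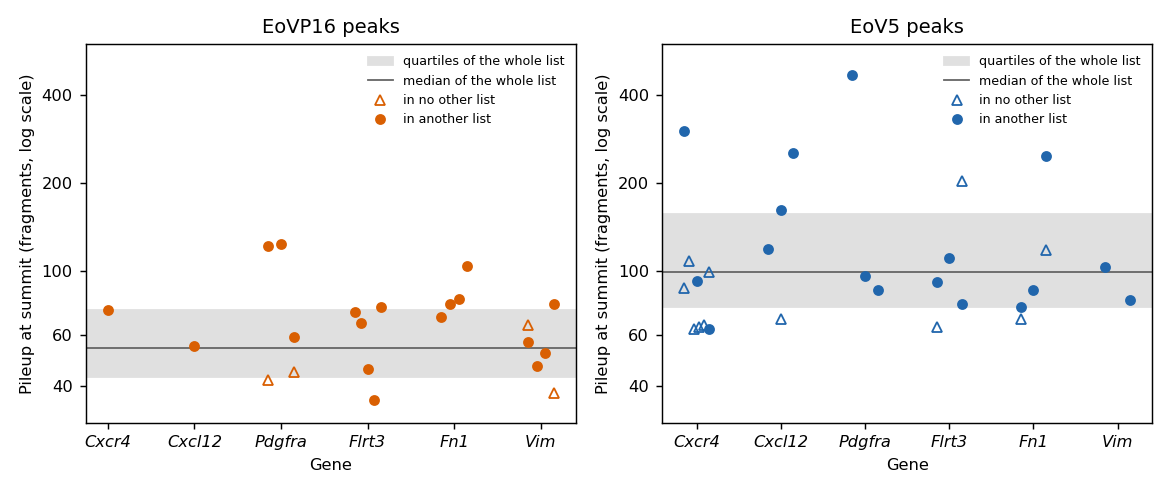
Pileup at the summit in fragments (vertical axes, log scale) of each EoVP16 peak (left) and EoV5 peak (right) near the 6 genes (horizontal axes), with filled circles for peaks that overlap another list and open triangles for those that do not. Grey bands give the quartiles and lines the median of each whole list (54 in EoVP16 and 99 in EoV5), and the tallest point is the EoV5 peak of 469 fragments upstream of Pdgfra.

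EoVP16 and EoV5 heights were compared as a ratio where their peaks overlapped. Over 13 pairs the median ratio was 0.725 (95% interval of the median 0.419 to 0.920), against 0.590 over all 20617 pairs (quartiles 0.355 to 0.836). Since depth is unknown, only the position of a pair within that range can be read. The site of all 4 lists at Pdgfra had the highest ratio, 1.28, above 97.1% of all pairs, and the tall site 7.22 kb upstream of the same gene the lowest, 0.258, above 14.7%. The ratio was 0.975 at the Vim start, 0.895 at the upper end of Fn1, 0.793 at the Cxcr4 start and 0.725 at the Flrt3 start. These gene-end pairs were all above the median of all pairs, and so was the Pdgfra pair inside the gene (0.686). The ratio was below that median at the distal sites of Cxcl12 (0.342) and Fn1 above the gene (0.419). It was also below at 9.59 kb upstream of Flrt3 (0.418) and 37.3 kb upstream of Vim (0.553). At 34.1 kb upstream of Flrt3 (0.974) and at the lower side of Fn1 (0.920) it was above. Ratios at the ends of all coding genes are not given here. The values at gene ends thus cannot be called particular to the genes studied. Summits of paired peaks lay within 34 bp of each other in 9 of 13 pairs. Within 50 bp lay 69.2% of these pairs and 68.8% of all pairs. The 4 wider gaps were at the starts of Vim (1901 bp) and Flrt3 (764 bp), 9.59 kb upstream of Flrt3 (668 bp) and at the upper end of Fn1 (521 bp).

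**Figure D5:**
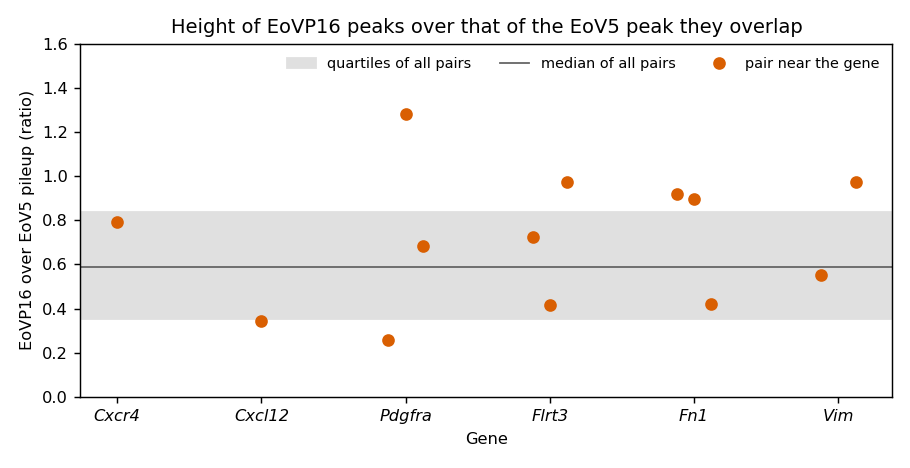
Ratio of EoVP16 to EoV5 pileup (vertical axis) for each EoVP16 peak near the 6 genes (horizontal axis) that overlaps an EoV5 peak, with the quartiles (grey band) and the median (line, 0.590) of all 20617 pairs. The points of Pdgfra span 0.258 to 1.28, the whole range of the 13 pairs.

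Genes related to these 6 by pathway, family or class were counted from a companion list of 31. All 31 had a BraGFP and an EoVP16 peak within 50 kb, and 30 had an EoGFP and an EoV5 peak, against 76.5% of coding genes for BraGFP, 84.2% for EoVP16, 81.1% for EoGFP and 83% for EoV5. The exception was Apln, which encodes a ligand of the apelin receptor and had 1 BraGFP and 1 EoVP16 peak. Medians per companion gene were 4 EoGFP, 3 BraGFP, 5 EoVP16 and 4 EoV5 peaks, against 3 EoGFP, 2 BraGFP, 3 EoVP16 and 3 EoV5 peaks per coding gene. Longer genes have longer windows, up to 908.7 kb among the companions, and these counts were not scaled to window length. In chemokine and apelin signalling, Ackr3, the second receptor for Cxcl12, had 3 EoGFP, 5 BraGFP, 3 EoVP16 and 2 EoV5 peaks, and the apelin receptor gene Aplnr had the most of its group, with 4 EoGFP, 5 BraGFP, 4 EoVP16 and 5 EoV5 peaks. The PDGF ligand gene Pdgfc had 3 peaks in each list, the most of its group of 5. Among 10 FLRT partners and relatives, the latrophilin gene Adgrl2 had the most, 7 EoGFP, 7 BraGFP, 9 EoVP16 and 12 EoV5 peaks in a window of 273.5 kb. Has2, which makes hyaluronan, led the 6 matrix genes with 4 EoGFP, 4 BraGFP, 6 EoVP16 and 8 EoV5 peaks. Krt18, an epithelial keratin, led the 6 intermediate filament genes with 10 EoGFP, 5 BraGFP, 12 EoVP16 and 8 EoV5 peaks, in a window that overlaps that of its neighbour Krt8. None of the 31 had 0 peaks in all 4 lists.

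Likeness to a companion was measured by the sum of the differences between their 4 peak counts. Pdgfra was closest to Adgrl1, a latrophilin gene (sum 2). Cxcl12 was closest to Unc5a, a netrin receptor gene (3). Flrt3 was closest to Aplnr (4), Fn1 to 4 genes that included Aplnr, the desmin gene Des and Pdgfc (3), and Vim to Des and Tnc, the tenascin C gene (3). Cxcr4 was farthest from any companion, with Pdgfd at a sum of 7. Between 2.78% and 7.57% of coding genes came as close to each of the 6 as its closest companion.

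At the limit of the window, the farthest peak counted was an EoV5 peak 49.8 kb from Cxcr4. Just beyond it, peaks of EoGFP, EoVP16 and EoV5 lay together 50.5 kb from Vim and were left out.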

How the data were processed

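ChIP-seq peak lists of 4 constructs were used. Per the submitters' processing notes, the tools on build mm10 included MACS2 2.1.1.20160309.4 and Bowtie2 2.3.4, besides SAMtools 1.3.1 and Picard 1.56.0. Their settings are not given in the sources used here. The deposited EoGFP and BraGFP lists hold positions only. The deposited EoVP16 and EoV5 lists have no header and follow the column order of a MACS2 table. Their signal column holds whole fragments stacked at each peak's summit (pileup), and the deposited fold enrichment is a ratio over the caller's background. The authors' −log10 p and q of each peak were not used. The sources used here do not say how 2 libraries became 1 list for EoGFP or BraGFP. Sequencing depth is unknown.

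Peaks on unplaced contigs (4 EoGFP, 7 BraGFP, 6 EoVP16, 7 EoV5) and repeated entries (12 EoGFP, 4 BraGFP, 26 EoVP16, 46 EoV5, each position counted once) were left out. Positions are printed as the files give them, counted from 1. The EoGFP and BraGFP files do not state their counting, which could shift starts by 1 bp. Gene spans came from RefSeq GRCm38.p6 (21887 coding genes), and strands and starts from its promoter table. Computation used Python 3.11.15, pandas 2.3.3 and scipy 1.17.1, and the overlap code was tested on simulated data. Intervals are Wilson for shares, exact Poisson for pileups and binomial for medians, all at 95%. Those for shares and pileups cover counting error only, and those for medians cover the spread between peaks or pairs. Shares and medians treat peaks of the same gene as independent, which they are not. The genes and companion list were chosen with earlier results of these data known. The text names all 6 genes, and companions that led their group, had no peak or had the most similar counts. It also gives the tallest and widest peaks and the sites in all 4 lists. Coding genes nearer to a peak are named too. Apln, Ackr3, the searches for AGGTG and TATAAA, and the descriptions of gene ends, of site distance, of height by sharing and of summit distances were added after values were seen.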

Additional observations from a re-analysis of the deposited data

How the results depend on the processing

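Of 108 alternative values, 87 stayed within the limits set, which were 1.5 times for a count and the 95% interval for a share or a median. In a window of 10 kb the genes held 9 EoGFP, 7 BraGFP, 11 EoVP16 and 12 EoV5 peaks. Of the 7 BraGFP peaks, 71.4% overlapped EoGFP, 85.7% overlapped EoVP16 (95% Wilson interval 48.7 to 97.4) and 14.3% stood alone (2.57 to 51.3). Of the 12 EoV5 peaks, 66.7% overlapped EoVP16. The same shares for peaks within 10 kb of all coding genes were not computed, so these values cannot be called particular to the 6 genes. Median widths in the 10 kb window were 980 bp for BraGFP, 1706 bp for EoVP16 and 1434 bp for EoV5. In the 50 kb window they were 618 bp for BraGFP, 1012 bp for EoVP16 and 799.5 bp for EoV5. The whole lists had medians of 587 bp for BraGFP, 793 bp for EoVP16 and 820 bp for EoV5. Widths within 10 kb of all coding genes are not given here. In a window of 100 kb EoV5 had 43 peaks, and all 6 genes had a BraGFP peak, as did 85.3% of coding genes. With the wider or taller 50% of each list, EoGFP had 9, BraGFP 10 and EoV5 11 peaks, 22.2% of EoGFP peaks overlapped EoV5 and 26.7% of EoVP16 peaks overlapped EoV5. This setting shortened both lists of a pair, and shares moved either way. BraGFP in EoVP16 rose to 70%, against 40.2% of the shortened BraGFP list, and EoV5 in EoVP16 fell to 36.4%. Shares of the shortened lists are not given here for overlap with EoV5, so those values cannot be called particular to the 6 genes. Counting only peaks whose single nearest coding gene was one of the 6 left 7 BraGFP and 11 EoVP16 peaks and removed Flrt3, which lies inside Macrod2, and 100% of the EoGFP peaks then overlapped EoV5 and 14.3% of the BraGFP peaks stood alone. The other overlap rules, run for 7 of the shares, and repeated entries and distance from the start (without Fn1), run for the peak counts, moved none of these values beyond the limits. The alternatives for BraGFP in EoVP16 and BraGFP alone were chosen after seeing the data. No paired analysis was possible because each construct has a single list and no test was made. The unknown depth and the different minimum heights limit every comparison of counts between lists.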

Other observations

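The pair of counts at Cxcr4, at least 9 EoV5 and at most 1 EoVP16 peak within 50 kb, was found at 4 of 21887 coding genes (0.0183%), the others being Edn3, which encodes an endothelin, Plpp4 and Zfp831. The pair of counts at Flrt3, at least 6 BraGFP and at most 2 EoGFP peaks, was found at 239 coding genes (1.09%). Both limits were set to the values of the gene in question after they were seen, so these shares describe how seldom such counts occur and test nothing. The Cxcr4 pair also depends on the window, since 3 EoVP16 peaks, the nearest at 55.3 kb, and 3 EoV5 peaks lay 50 to 100 kb from the gene. EoVP16 and EoV5 are 1 library each, and their lists start at different heights.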
